A study of Mus musculus with 6 samples.

Results

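Vitamin A enters cells as retinol and acts mainly after its oxidation to retinoic acid. Here, 10 genes of retinoid metabolism and response, *Adh1*, *Adh7*, *Rdh10*, *Dhrs3*, *Aldh1a2*, *Aldh1a3*, *Crabp1*, *Crabp2*, *Rarb* and *Cyp26b1*, were followed out of 17092 genes measured in mouse embryonic fibroblasts (MEFs). The 10 genes were chosen from the read counts of these same 6 libraries, with the difference between genotypes known, and were then picked out of the count table by symbol. Their own differences between genotypes are therefore given as a description, without a test. The choice was a list of names with no cut-off value. All 10 genes passed the filter on low counts, which 13075 of the 17092 genes passed.

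Retinol is oxidised to retinaldehyde by alcohol dehydrogenases and by short-chain dehydrogenases such as Rdh10, and Dhrs3 runs the same step backwards. Retinaldehyde dehydrogenases of the Aldh1a family then make retinoic acid, which small cytosolic proteins (Crabp1, Crabp2) carry to enzymes or to the nucleus. There it binds retinoic acid receptors, which sit on DNA with retinoid X receptors, and enzymes of the Cyp26 family break it down. Embryonic connective tissue cells are known both to make retinoic acid and to respond to it.

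The MEFs, cultured connective tissue cells of the embryo, came from wild-type (WT) mice and from *Aff3ir-ORF2-/-* mice, with 3 libraries of each genotype. *Aff3ir* is a gene nested within *Aff3*, and ORF2 is one of its proteins. The knockout line was a global one, made with Cas9 and guide RNAs in fertilised eggs, so every cell carried the deletion. The study compared the genotypes to look for how the protein acts against atherosclerosis. No treatment is given for either genotype, and the age and sex of the embryos are not in the labels. The labels do not say whether the libraries of a genotype came from separate cultures or embryos, so the p-values given for other genes measure only the spread between these libraries, which may be technical.

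Libraries held 17435133 to 17726034 counts in WT and 18209421 to 18252330 in the knockout. A count of 3, taken as the limit of detection for counting error alone, was equal to 0.161 to 0.174 CPM, which are counts scaled to 1000000 in a library. The deleted gene itself was not analysed here. Its host gene *Aff3* had 406 to 418 counts in WT and 186 to 229 in *Aff3ir-ORF2-/-* libraries. Marker lists of cell types were read beside the retinoid genes. The 10 fibroblast markers were above the limit of detection in every library, with a summed level of 29228 to 29381 CPM in WT and 25172 to 31804 CPM in *Aff3ir-ORF2-/-* MEFs, and 1 of them (*Pdgfrb*) was higher in the knockout. Of 12 macrophage markers, 11 were tested and all 11 were higher in *Aff3ir-ORF2-/-* MEFs, with a summed level of 19.3 to 23.0 CPM in WT and 1271 to 2162 CPM in the knockout. *C1qa*, *C1qb* and *Aif1* were at 0 in every WT library. Mesothelial markers were higher for 4 of 7 tested genes (*Msln*, *Lrrn4*, *Upk1b* and *Upk3b*), at a sum of 30.5 to 31.5 CPM in WT and 49.4 to 69.2 CPM in the knockout. For the other tested ones, *Wt1*, *Krt18* and *Krt19*, the genotypes overlapped. *Krt8*, not tested, had 6, 16 and 12 counts in WT and 5 in each knockout library. Endothelial markers gave 1 higher (*Kdr*) and 1 lower (*Cdh5*) of 3 tested genes, at 6.79 to 7.28 CPM in WT and 7.73 to 14.0 CPM in the knockout. Neural and Schwann markers gave 1 higher (*Sox10*) and 1 lower (*Tubb3*) of 3, at 37.9 to 43.1 CPM and 19.2 to 42.2 CPM. The top knockout sum was that of replicate 3, and replicates 1 and 2 were at 19.2 and 24.3 CPM. In replicate 3 *Gfap*, which was not tested, had 347 counts (18.9 CPM), against 4 and 12 in replicates 1 and 2. Adipocyte markers gave 1 higher (*Fabp4*) of 2, at 8.76 to 10.4 CPM and 10.2 to 15.9 CPM, and hepatocyte markers 1 higher (*Apob*) of 1, at 0.406 to 1.14 CPM and 1.5 to 1.98 CPM. No epithelial marker had enough counts to be tested, at 0.515 to 0.696 CPM and 0.912 to 1.54 CPM. These counts stand beside 14.2% higher and 7.27% lower among all tested genes, by the thresholds given below. Markers with too few counts in WT, such as *C1qa*, *C1qb* and *Apob*, passed the filter on low counts only through the knockout. Only a higher call was open to those. Marker genes within these lists that are named here were picked after their values were seen. In bulk RNA, fewer cells of a type cannot be told apart from less RNA of a gene per cell, and the part of the cells with macrophage or mesothelial markers in the retinoid values was not tested.

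**Figure D1:**
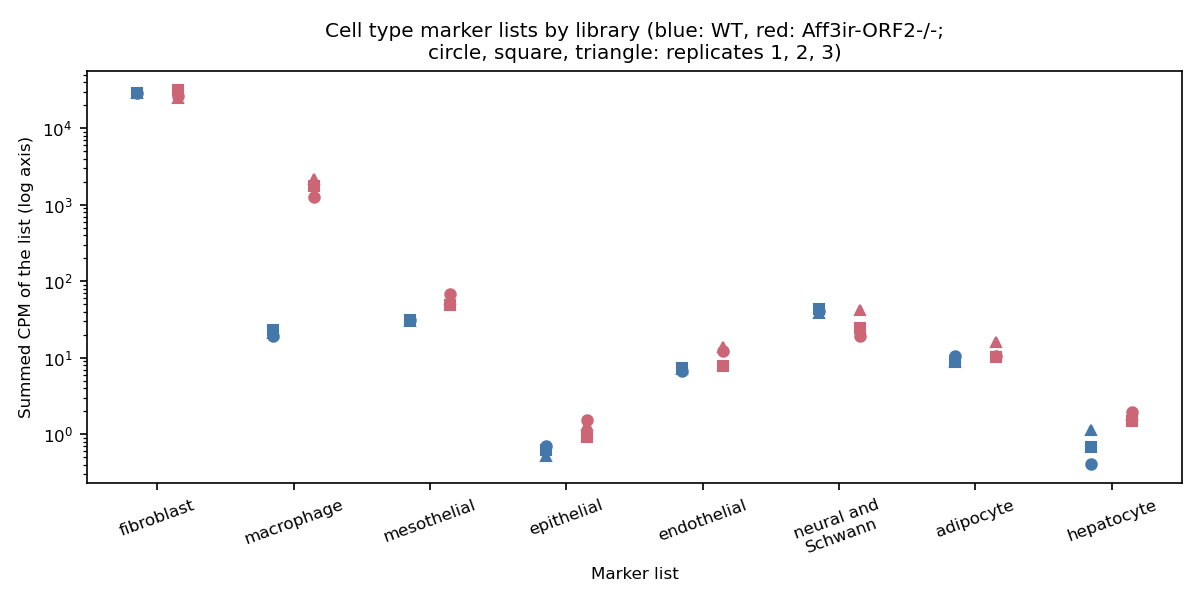
Summed level of 8 cell type marker lists in each library, in CPM on a log axis, with WT in blue, *Aff3ir-ORF2-/-* in red and a symbol for each replicate number. Fibroblast markers sum to at least 25172 CPM in every library, and macrophage markers sum to 19.3 to 23.0 CPM in WT and 1271 to 2162 CPM in the knockout.

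The 10 retinoid genes did not move one way. With the thresholds used for all genes, a Benjamini-Hochberg adjusted p under 0.05 by the quasi-likelihood test of edgeR and a change of at least 1.5-fold, 4 of them were on the higher side in *Aff3ir-ORF2-/-* MEFs (*Dhrs3*, *Cyp26b1*, *Rarb* and *Aldh1a2*), 3 were on the lower side (*Adh7*, *Aldh1a3* and *Crabp1*), and 3 were past neither (*Crabp2*, *Adh1* and *Rdh10*). Among all tested genes 21.4% passed both thresholds, 14.2% as higher and 7.27% as lower. For the same 7 genes, the values of the genotypes did not overlap, which was also the case for 66% of all tested genes. The median log2 fold change was 0.13 over the 10 genes and 0.01 over all 13075 tested genes. Since the 10 genes were chosen on this difference, their counts are set beside these shares and nothing is read from them.

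**Figure D2:**
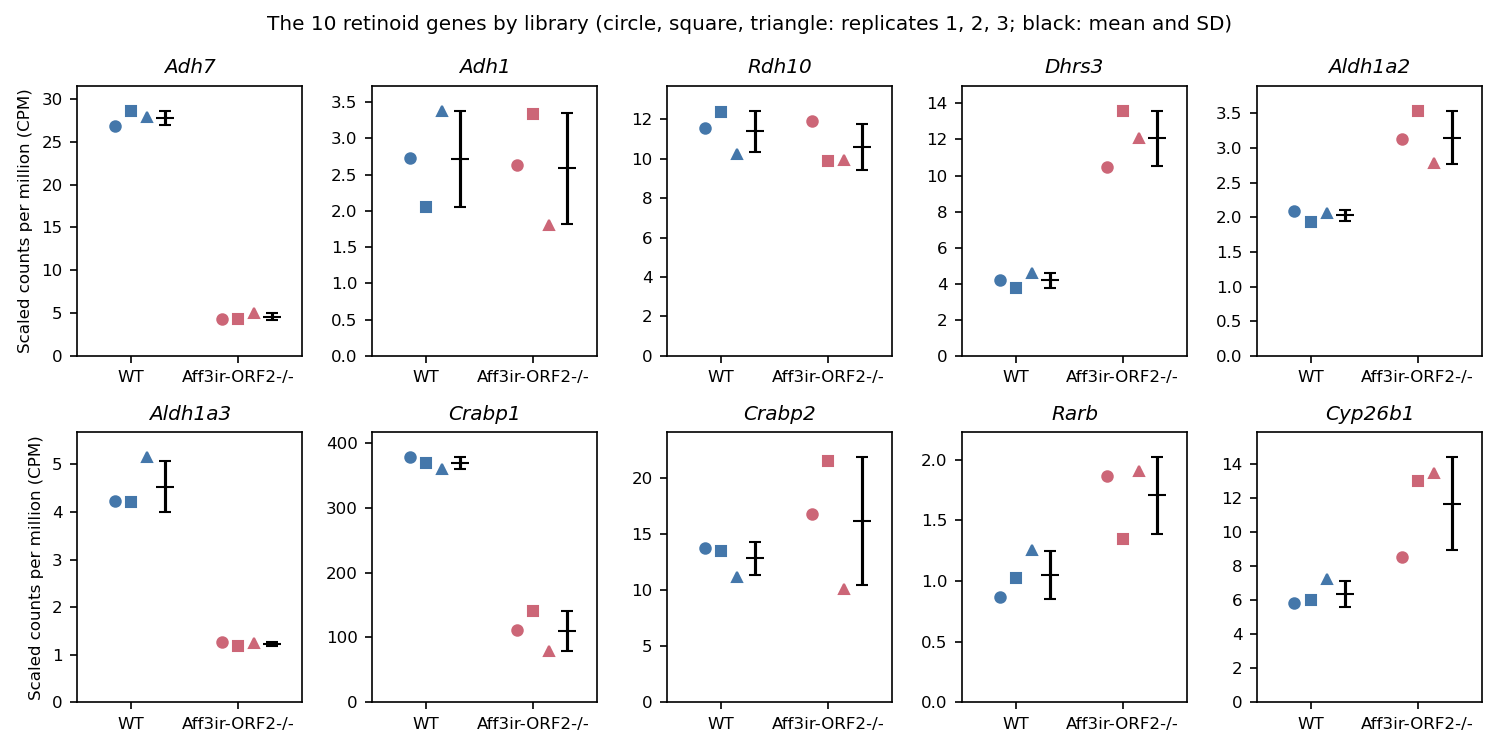
Level of the 10 retinoid genes in each library, in CPM scaled by TMM factors, with WT in blue, *Aff3ir-ORF2-/-* in red, a symbol for each replicate number and the mean with its SD in black (n = 3). For *Adh7* the WT libraries average 27.8 CPM and the knockout libraries 4.55 CPM without overlap, while for *Adh1*, *Rdh10* and *Crabp2* the genotypes overlap.

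Among the enzymes that oxidise retinol, *Adh7*, an alcohol dehydrogenase that acts on retinol, stood lowest against WT. It had 463, 502 and 488 counts in WT replicates 1, 2 and 3, against 79, 80 and 92 in those of *Aff3ir-ORF2-/-* MEFs, with values always given in this order. All WT libraries were far above all knockout libraries, and replicates of a genotype lay close together. The mean level was 27.8 ± 0.861 CPM in WT and 4.55 ± 0.403 CPM in *Aff3ir-ORF2-/-* MEFs (SD, n = 3 each), which was 6.10-fold lower in the knockout, at a log2 fold change of -2.61 with a standard error (SE) of 0.09.

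*Adh1*, the neighbouring alcohol dehydrogenase gene, showed no such separation. Its counts were 47, 36 and 59 in WT and 48, 62 and 33 in the knockout. The values of the genotypes overlapped. Means were 2.72 ± 0.665 CPM and 2.59 ± 0.766 CPM, at a log2 fold change of -0.07 (SE 0.26) that ranged from -0.30 to 0.13 when each library was left out in turn. *Rdh10*, the retinol dehydrogenase that embryos need to make retinoic acid, had 199, 217 and 179 counts in WT and 217, 184 and 182 in the knockout. The genotypes overlapped, with 11.4 ± 1.06 CPM against 10.6 ± 1.17 CPM and a log2 fold change of -0.11 (SE 0.11).

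*Adh7* and *Adh1* follow each other in the gene order of the RefSeq annotation of GRCm38.p6, and *Adh5* comes next. *Adh5*, a widely expressed member of this enzyme family, had 1880, 1826 and 1820 counts in WT and 1688, 1651 and 1692 in the knockout. Its log2 fold change was -0.21 (SE 0.04, edgeR adjusted p = 0.00263), under the 1.5-fold threshold. Per kilobase of transcript, *Adh7* made up 20.1% to 22.1% of the summed level of these 3 dehydrogenases in WT and 4.53% to 5.33% in the knockout. Most of that sum was *Adh5*, at 72.9% to 75.2% in WT and 87.2% to 90.3% in the knockout.

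*Dhrs3*, which reduces retinaldehyde back to retinol and whose transcription is known to respond to retinoic acid, went the other way from *Adh7*. It had 73, 66 and 80 counts in WT and 191, 253 and 222 in the knockout. Every knockout library was above every WT library. Means were 4.19 ± 0.414 CPM and 12.1 ± 1.55 CPM, 2.88-fold higher in the knockout, at a log2 fold change of 1.52 (SE 0.13). In the RefSeq table *Dhrs3* overlaps *Vps13d*, which had 1200 to 1219 counts in WT and 1548 to 1831 in the knockout, and how reads in the overlap were assigned is not given in the sources used here.

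The retinaldehyde dehydrogenases make retinoic acid itself, and the 2 chosen ones differed in direction. *Aldh1a2*, the main enzyme of this step in early embryos, had 36, 34 and 36 counts in WT and 57, 66 and 51 in the knockout. All knockout libraries lay above the WT libraries, at 2.03 ± 0.0821 CPM in WT and 3.15 ± 0.382 CPM in the knockout, 1.55-fold higher (log2 fold change 0.63, SE 0.18). The gene lay close to the 1.5-fold threshold. It was no longer past both thresholds without WT replicate 2 or without *Aff3ir-ORF2-/-* replicate 2, and its log2 fold change ranged from 0.54 to 0.71 when each library was left out in turn.

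*Aldh1a3*, which makes retinoic acid in the developing eye and nose, had 73, 74 and 90 counts in WT and 23, 22 and 23 in the knockout. The knockout libraries were nearly equal to each other and all below the WT libraries. The mean level was 4.53 ± 0.537 CPM in WT and 1.23 ± 0.0449 CPM in the knockout, 3.66-fold lower, at a log2 fold change of -1.87 (SE 0.18).

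*Aldh1a1*, the third enzyme of this step, was not among the 10 genes and is given with a test. The wider list that holds *Aldh1a1* was also written with earlier results of these data known. It had 5, 5 and 1 counts in WT and 190, 185 and 268 in the knockout. It rose from near the limit of detection in WT, at 0.211 ± 0.133 CPM, to 11.7 ± 2.57 CPM in the knockout (log2 fold change 5.75, SE 0.33, edgeR adjusted p = 2.00e-06). Its close paralog *Aldh1a7* had 0, 1 and 0 counts in WT and 108, 103 and 107 in the knockout, at least 33.1-fold higher against a limit of 3 counts in each WT library (edgeR adjusted p = 1.15e-06). Both genes were under 10 counts in every WT library and passed the filter on low counts only through the knockout. Only a higher call was open to them, so nothing is read from their p-values. The sequences of these paralogs are alike, and how reads that match both were divided is not given in the sources used here, so the split between them is uncertain.

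Per kilobase of transcript, the make-up of *Aldh1a1*, *Aldh1a2* and *Aldh1a3* together differed between genotypes in every library. *Aldh1a7* was left out of this sum. It was at 2.79 CPM per kilobase in the knockout and under the limit of detection in WT. Since the split of reads between it and *Aldh1a1* is uncertain, so are the *Aldh1a1* shares. In WT, *Aldh1a3* held 54.1% to 61.6%, *Aldh1a2* 37.4% to 40.5% and *Aldh1a1* 0.999% to 5.49% of their summed level. In *Aff3ir-ORF2-/-* MEFs *Aldh1a1* held 68.8% to 79.6%, *Aldh1a2* 15.8% to 25.6% and *Aldh1a3* 4.68% to 5.94%. *Aldh1a3*, the leading enzyme in WT, was thus the lowest of the 3 in the knockout, although *Aldh1a2* was higher there in CPM. The sum of the 3 was 2.30 ± 0.119 CPM per kilobase in WT and 6.69 ± 0.947 CPM per kilobase in the knockout (SD, n = 3 each). Beside this, the macrophage marker sum was 19.3 to 23.0 CPM in WT and 1271 to 2162 CPM in the knockout, and its part in the *Aldh1a1* reads was not tested.

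**Figure D3:**
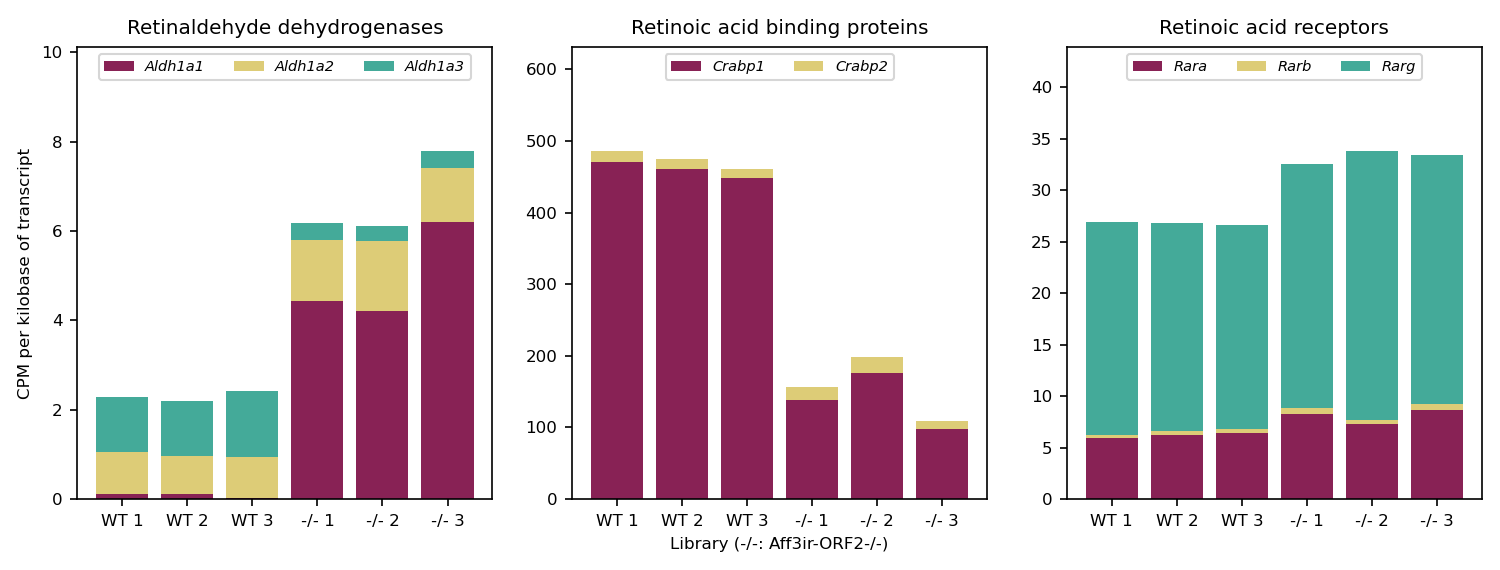
Stacked levels per kilobase of transcript, in CPM per kilobase, of the retinaldehyde dehydrogenases, the retinoic acid binding proteins and the retinoic acid receptors in each library. *Aldh1a1* holds 0.999% to 5.49% of the dehydrogenases shown in WT and 68.8% to 79.6% in the knockout, with *Aldh1a7* left out. *Crabp1* holds over 88% of its pair in every library, and *Rarb* is at most 1.85% of the receptors.

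*Crabp1*, a cytosolic protein that binds retinoic acid and can lead it to breakdown, had the most reads of the 10 genes. It had 6510, 6495 and 6282 counts in WT and 2020, 2627 and 1443 in the knockout. Each knockout library was below each WT library, and the knockout libraries were spread more widely. The mean level was 369 ± 9.01 CPM in WT and 110.2 ± 31.2 CPM in the knockout, 3.35-fold lower, at a log2 fold change of -1.74 (SE 0.21).

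*Crabp2*, which carries retinoic acid to its receptors, had 238, 238 and 195 counts in WT and 306, 401 and 186 in the knockout. Knockout replicates 1 and 2 were above all WT libraries and replicate 3 was below them. Means were 12.8 ± 1.45 CPM and 16.2 ± 5.72 CPM, at a log2 fold change of 0.33 (SE 0.27) that ranged from 0.07 to 0.58 when each library was left out in turn.

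The ratio of *Crabp1* to *Crabp2* did not overlap between the genotypes. Per kilobase of transcript it was 31.8, 31.7 and 37.4 in WT replicates 1, 2 and 3. It was 7.66, 7.60 and 9.01 in *Aff3ir-ORF2-/-* replicates 1, 2 and 3. Within the knockout both genes were highest in replicate 2 and lowest in replicate 3, and the ratio moved less than *Crabp1* itself. *Crabp1* still held 88.4% to 90.0% of the summed level of the pair in the knockout, against 96.9% to 97.4% in WT.

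*Rarb* encodes retinoic acid receptor beta and is a textbook target of retinoic acid, through a direct repeat in its promoter. The promoter is shown because *Rarb* and *Cyp26a1*, which encodes an enzyme of retinoic acid breakdown and is another textbook target, are the listed genes of this pathway whose promoters held a repeat with 5 bases between its parts, the spacing classically bound by these receptors. A direct repeat was searched as 2 hexamers, each of them AGGTCA or alternatively AGTTCA or alternatively GGGTCA or alternatively GGTTCA, in the same orientation with 1, 2 or 5 bases between them, on both strands of RefSeq promoters of GRCm38.p6 (250 bases before to 50 bases after a gene's start). The 250 bases before the start are printed below, from 5′ to 3′ on the gene's strand, with the repeat of spacing 5 in capitals, for *Rarb* (chr14:16575477-16575726, minus strand) and *Cyp26a1* (chr19:37697558-37697807, plus strand).
Rarb: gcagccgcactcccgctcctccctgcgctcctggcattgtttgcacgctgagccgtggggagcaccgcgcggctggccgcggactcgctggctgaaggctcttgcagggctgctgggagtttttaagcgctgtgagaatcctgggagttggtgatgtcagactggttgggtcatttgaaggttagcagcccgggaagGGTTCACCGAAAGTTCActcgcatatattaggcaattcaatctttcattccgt
Cyp26a1: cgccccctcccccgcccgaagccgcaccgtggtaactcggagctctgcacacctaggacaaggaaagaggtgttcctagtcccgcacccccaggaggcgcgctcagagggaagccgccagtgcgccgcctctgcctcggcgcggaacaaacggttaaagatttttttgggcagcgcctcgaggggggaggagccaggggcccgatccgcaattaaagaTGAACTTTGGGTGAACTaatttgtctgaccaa
In *Rarb* the repeat reads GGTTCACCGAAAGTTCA on the gene's strand and begins 53 bases before the start. In *Cyp26a1* it lies on the other strand, where it reads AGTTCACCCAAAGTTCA.

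The promoter table matched 7 of the 10 genes, with 9 promoters. *Rdh10*, *Aldh1a3* and *Crabp2* had no entry. The *Rarb* promoter was the only 1 of the 9 that held a repeat of any of the 3 spacings. *Aldh1a2*, *Dhrs3* and *Cyp26b1*, which were also higher in the knockout, thus held no such repeat in their windows. Sequence outside the windows was not searched. Of all 32851 promoters in the table, 193 (0.588%) held such a repeat and 32 (0.0974%) held one with spacing 5. Of the promoters of the other listed pathway genes, 2 of 71 held one, in *Cyp26a1* and *Bco1*. A match of letters is a description and not a bound site.

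*Rarb* had 15, 18 and 22 counts in WT and 34, 25 and 35 in the knockout. The genotypes did not overlap, but the lowest knockout library (replicate 2, 1.34 CPM) was close to the highest WT library (replicate 3, 1.26 CPM). Means were 1.05 ± 0.196 CPM and 1.71 ± 0.315 CPM, 1.62-fold higher in the knockout (log2 fold change 0.69, SE 0.26). At these counts the placement of *Rarb* depended on single libraries. It was past both thresholds with all 6 libraries but not when WT replicate 1, 2 or 3 or knockout replicate 1 or 3 was left out, with log2 fold changes of 0.58 to 0.84 over these fits.

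The related receptors were not among the 10 genes and are given with a test. They belong to the wider list, which was also written with earlier results of these data known. *Rara*, which encodes receptor alpha, had 345, 371 and 380 counts in WT and 507, 459 and 537 in the knockout, at a log2 fold change of 0.38 (SE 0.08, edgeR adjusted p = 0.00255). *Rarg*, which encodes receptor gamma, had 1052, 1050 and 1018 counts in WT and 1275, 1433 and 1309 in the knockout, at 0.29 (SE 0.05, edgeR adjusted p = 0.00120). The values of both genes lay above WT in every knockout library, by less than 1.5-fold. *Rxra*, which encodes their partner retinoid X receptor alpha, had 995, 994 and 995 counts in WT and 1485, 1555 and 1604 in the knockout, at a log2 fold change of 0.56 (SE 0.05, edgeR adjusted p = 1.19e-05). This was just under 1.5-fold and passed it with upper quartile scaling (0.60) or total counts (0.59). *Rxrb* had 441, 422 and 451 counts in WT and 461, 471 and 483 in the knockout, and the genotypes overlapped in CPM (log2 fold change 0.03, SE 0.06, edgeR adjusted p = 0.709).

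Per kilobase of transcript, *Rarb* was a small part of the receptor pool in both genotypes. It held 1.04% to 1.53% of the summed level of *Rara*, *Rarb* and *Rarg* in WT and 1.28% to 1.85% in *Aff3ir-ORF2-/-* MEFs. *Rarg* held 74.3% to 76.9% in WT and 72.3% to 77.2% in the knockout. The summed level was 26.7 ± 0.152 CPM per kilobase in WT and 33.2 ± 0.631 CPM per kilobase in the knockout (SD, n = 3 each).

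*Cyp26b1*, the enzyme that breaks down retinoic acid in many embryonic tissues, had 100, 106 and 126 counts in WT and 155, 242 and 247 in the knockout. All knockout libraries were above all WT libraries, with replicate 1 nearest to WT. Means were 6.35 ± 0.758 CPM and 11.7 ± 2.73 CPM, 1.84-fold higher in the knockout (log2 fold change 0.88, SE 0.18). *Cyp26b1* carried nearly all reads of its family, since *Cyp26a1* and *Cyp26c1* together reached at most 0.286 CPM in a WT library and 0.109 CPM in a knockout library. *Cyp26a1*, whose promoter is printed above, had 2, 0 and 2 counts in WT and 0 in each knockout library, under the limit of detection in both genotypes, and no difference could be detected at this depth.

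In the order of levels per kilobase of transcript, *Crabp1* led in both genotypes, at a mean of 460.0 CPM per kilobase in WT and 137 in *Aff3ir-ORF2-/-* MEFs, with *Crabp2* next at 13.8 and 17.4. In WT the order went on with *Adh7* (8.09), *Rdh10* (3.17), *Adh1* (1.82), *Dhrs3* (1.79), *Cyp26b1* (1.41), *Aldh1a3* (1.32), *Aldh1a2* (0.896) and *Rarb* (0.338). The ranges of *Adh1* and *Dhrs3* overlapped, as did those of *Cyp26b1* and *Aldh1a3*, and the other neighbours in the WT order did not. In the knockout *Dhrs3* came after *Crabp2* (5.16), and was followed by *Rdh10* (2.95), *Cyp26b1* (2.59), *Adh1* (1.73), *Aldh1a2* (1.39), *Adh7* (1.33), *Rarb* (0.549) and *Aldh1a3* (0.358). From *Rdh10* down to *Adh7* each gene overlapped with the next one in the knockout order. *Adh7* thus stood directly after *Crabp2* in WT and behind *Aldh1a2* in the knockout, where *Aldh1a3* was last.

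For most of the 10 genes, libraries of the knockout were more spread than those of WT. The coefficient of variation of the 10 genes had a median of 10.6% in WT (2.44% to 24.5%) and of 15.7% in the knockout (3.65% to 35.4%), and was larger in the knockout for 8 of them. The widest was that of *Crabp2*. The same share over all tested genes was not computed, so the spread is not read as particular to these genes.

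The other genes of the pathway were read from a list of 65 that left out the 10 genes. Of these, 55 were in the table and 38 had enough counts to be tested, of which 8 were higher in *Aff3ir-ORF2-/-* MEFs, 2 were lower and 28 were not past both thresholds. The share of higher calls among all tested genes was 14.2% and that of lower calls 7.27%. Of the higher genes, *Aldh1a1*, *Aldh1a7*, *Stra6l* and *Rarres2* passed the filter on low counts only through the knockout. Only a higher call was open to these genes. *Stra6*, among the lower genes, passed only through WT and could only be called lower. A filter asking each library for 10 counts left 4 higher and 1 lower. The counts of 8 and 2 thus partly reflect the filter, and nothing is read from them beside these shares. The median log2 fold change of the 38 genes was 0.17. This list was written with earlier results of these data known, and it does not stand for an independent choice.

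**Figure D4:**
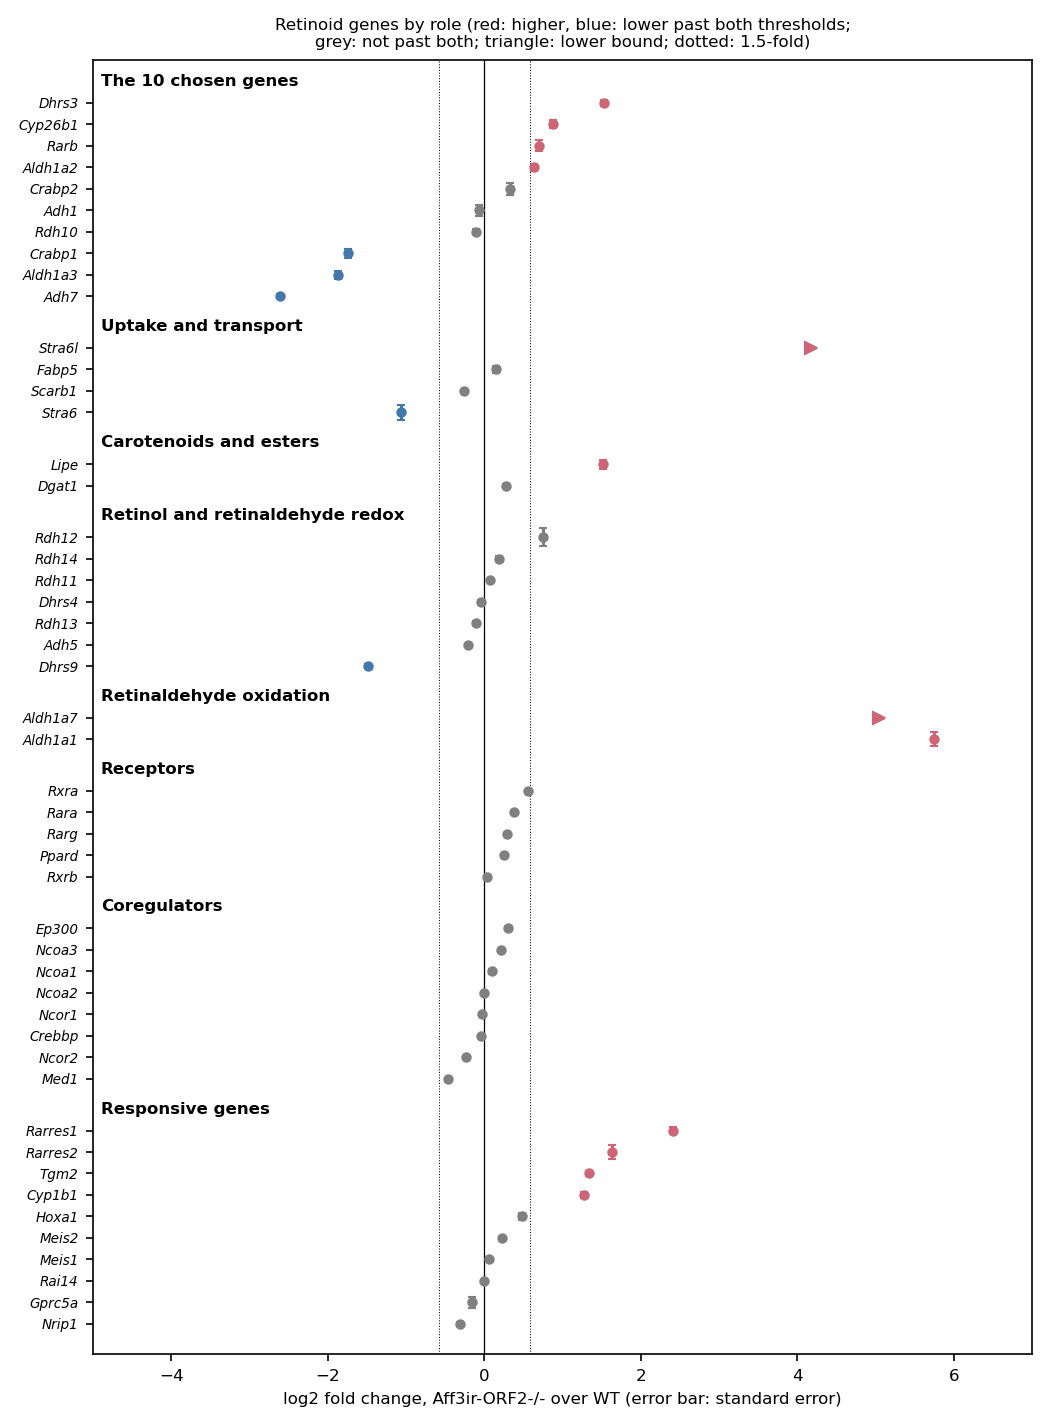
Log2 fold change of *Aff3ir-ORF2-/-* over WT for the 10 chosen genes and the 38 tested genes of the wider list, grouped by role, with bars for the standard error, dotted lines at 1.5-fold, and triangles for lower bounds where WT was under the limit of detection. *Adh7*, *Aldh1a3* and *Crabp1* lie farthest to the left at -2.61, -1.87 and -1.74, and *Aldh1a1* lies farthest to the right among the fitted values at 5.75.

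Genes of retinol uptake and transport went in both directions, with 1 higher and 1 lower of 4 tested. *Stra6*, the membrane receptor that takes up retinol, was at few counts, 14, 16 and 20 in WT and 6, 12 and 7 in the knockout. Its log2 fold change was -1.07 (SE 0.36, edgeR adjusted p = 0.0274), and the call was lost without WT replicate 2 or 3 or knockout replicate 1 or 3 (adjusted p of 0.0621 to 0.107) and by DESeq2 (adjusted p = 0.0985). *Stra6l*, a relative of *Stra6*, had 0, 0 and 2 counts in WT and 46, 42 and 85 in the knockout, at least 18-fold higher (edgeR adjusted p = 8.10e-05). *Stra6l* passed the filter on low counts only through the knockout and *Stra6* only through WT. Each could thus be called in a single direction only, and nothing is read from their p-values. *Stra6* overlaps *Ccdc33* and *Stra6l* overlaps *Igfbpl1* in the RefSeq table.

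In the enzymes between retinol and retinaldehyde, 1 of 7 tested genes was lower and none was higher, at a median log2 fold change of -0.04. The lower one was *Dhrs9*, a short-chain dehydrogenase, with 296, 301 and 308 counts in WT and 116, 112 and 113 in the knockout. It fell from 17.3 ± 0.281 CPM to 6.18 ± 0.180 CPM (log2 fold change -1.48, SE 0.08, edgeR adjusted p = 1.62e-06). Of the oxidising dehydrogenases described here for this step, *Adh7*, itself a chosen gene, and *Dhrs9* were past both thresholds as lower. *Adh1*, *Rdh10* and *Adh5* stayed within 1.5-fold of WT. *Cyp1b1*, a cytochrome P450 described below that can also oxidise retinol, was past both thresholds as higher (log2 fold change 1.27). Of the genes that handle carotenoids and retinyl esters, 1 of 2 tested was higher: *Lipe*, a lipase that also acts on retinyl esters, had 24, 30 and 21 counts in WT and 84, 63 and 80 in the knockout (log2 fold change 1.52, SE 0.21, edgeR adjusted p = 2.32e-04).

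Neither the 5 tested receptor genes nor the 8 coregulator genes held a gene past both thresholds, at median log2 fold changes of 0.29 and -0.02. Of the 10 tested genes known to respond to retinoids, 4 were higher and none was lower. Among all tested genes 14.2% were higher and 7.27% lower, and nothing is read from the counts over so few genes. *Tgm2*, tissue transglutaminase, had 677, 598 and 630 counts in WT and 1824, 1472 and 1769 in the knockout (log2 fold change 1.33, SE 0.10, edgeR adjusted p = 1.21e-05). *Cyp1b1*, a cytochrome P450 that can also oxidise retinol, had 2706, 2682 and 2825 counts in WT and 6749, 5972 and 8228 in the knockout (1.27, SE 0.12, edgeR adjusted p = 1.19e-04). All knockout libraries lay above WT for both. *Rarres1*, a retinoid-responsive gene of epithelial cells, had 25, 27 and 26 counts in WT and 133, 158 and 149 in the knockout (2.41, SE 0.15, edgeR adjusted p = 2.20e-06). *Rarres2*, which encodes the chemoattractant chemerin and overlaps *Lrrc61*, had 7, 11 and 8 counts in WT and 30, 36 and 20 in the knockout (1.63, SE 0.33, edgeR adjusted p = 0.00234). It passed the filter on low counts only through the knockout, so only a higher call was open to *Rarres2*. The median log2 fold change of these 10 responsive genes was 0.35. Macrophage and mesothelial marker sums were higher in the same libraries, as given above, and their part in these calls was not tested.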

How the data were processed

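RNA of 3 WT and 3 *Aff3ir-ORF2-/-* MEF libraries was sequenced on a DNBSEQ platform. Reads were filtered with SOAPnuke by the sequencing provider, and the authors deposited estimated counts of each gene, without normalization, for all libraries in 1 table. The aligner and the counting tool are not given in the sources used here. The submitters' processing notes name the build mm8, so no coordinates were joined to the counts. Values that were not whole, 10.6% to 11.3% per library, were rounded.

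Genes were filtered with filterByExpr (minimum count 10, minimum total 15), scaled by TMM and tested across all 13075 remaining genes with edgeR 4.0.16 (quasi-likelihood test with a robust prior, no covariates) in R 4.3.3. Genes were called at an adjusted p (Benjamini-Hochberg) under 0.05 and a change of 1.5-fold. The SE is the absolute log2 fold change divided by the square root of the F statistic. CPM were computed on TMM-scaled totals, and levels per kilobase used, for a symbol, its longest transcript in GENCODE M21. A bound against a genotype at or under 3 counts in every library was computed with 3 counts in each.

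The 10 genes, the wider pathway list and the marker lists were chosen with earlier results of these data known. Named in the text are the 10 genes, pathway genes fixed by name, up to 8 pathway genes in each direction by adjusted p, and gene neighbours past both thresholds. *Adh5*, *Vps13d*, *Cyp26c1* and *Bco1* were added after their values were seen. A pathway gene and a marker gene of the lists are not reported here and were left out of the counts. Promoters and gene order came from RefSeq (GRCm38.p6), which held 17043 of the 17092 gene IDs. Alternatives were other scalings, filters, DESeq2 1.42.0, limma 3.58.1 voom, a replicate block, each library left out and, added after seeing the data, no robust prior. The fits were tested on simulated data with the same spread in both genotypes and changes larger than 1.5-fold. That setting does not bear on calls near 1.5-fold or on genes with a wider spread in the knockout. Figures used Python 3.11.15 with matplotlib 3.10.9.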

Additional observations from a re-analysis of the deposited data

How the results depend on the processing

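Of the 10 retinoid genes, *Adh1* changed its sign, from a log2 fold change of -0.07 to 0.12 without WT replicate 3 and 0.13 without knockout replicate 3, and the others kept theirs under the 15 alternatives. Past both thresholds as lower were 3 genes under each. The higher ones were 4, or 2 with DESeq2's Wald test, without *Rarb* and *Aldh1a2*, and 2 to 3 when each library was left out, with 2 without WT replicate 2. *Rarb* was also lost with no filter on low counts and with voom. Of the wider pathway list, 8 genes were higher, or 4 with at least 10 counts in every library, since *Aldh1a1*, *Aldh1a7*, *Rarres2* and *Stra6l* were then not tested, and 2 were lower, or 1 with that filter, with DESeq2 and without WT replicate 2 or 3 or knockout replicate 1 or 3 (1 to 2 over the libraries left out), where *Stra6* was lost or not tested. The median log2 fold change of that list was 0.17, or 0.097 with at least 10 counts in every library. *Rxrb* turned from 0.03 to -0.0060 on the log2 scale without WT replicate 2, in a range of -0.0060 to 0.046 over the libraries left out. The median of the 10 genes ranged from 0.00062 to 0.35 over the libraries left out. Same-numbered libraries of the genotypes deviated together only weakly, at correlations of 0.0557, 0.0428 and 0.0216, each the highest for its library. Pairs with different numbers were at -0.0397 to -0.0057. The labels give no pairing, and whether same-numbered libraries share more than a number was not tested. With the replicate block, 4 retinoid genes were past both thresholds as higher and 3 as lower, and all tested genes gave 1854 higher and 954 lower in place of 1851 and 951. At under 40 counts a library, as for *Rarb*, counting error limits the placement of a gene near 1.5-fold.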

Other observations

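The genes next to the 10 retinoid genes were read as a further description. Up to 2 genes on each side in the RefSeq gene order gave 36 neighbours outside the 10 genes, of which 31 were tested. Of these, 4 were higher in *Aff3ir-ORF2-/-* MEFs and 0 were lower past both thresholds, against 14.2% higher and 7.27% lower among all tested genes, and the median log2 fold change of the 31 was -0.02. *Dysf*, a membrane repair gene beside *Cyp26b1*, had 1016, 1049 and 1047 counts in WT and 1942, 2033 and 2006 in the knockout (log2 fold change 0.86, SE 0.04, edgeR adjusted p = 9.20e-07). *Tnfrsf1b*, a receptor of tumour necrosis factor beside *Dhrs3*, had 574, 557 and 569 counts in WT and 1123, 1089 and 1346 in the knockout (0.99, SE 0.08, edgeR adjusted p = 1.48e-05). *Nes*, which encodes the intermediate filament nestin and lies beside *Crabp2*, had 2121, 2036 and 2095 counts in WT and 3762, 2849 and 3772 in the knockout (0.66, SE 0.12, edgeR adjusted p = 0.00268), and was under 1.5-fold without knockout replicate 1 (0.58). *Aqp9*, a water and glycerol channel beside *Aldh1a2*, had few counts, 3, 3 and 7 against 17, 20 and 12 in the knockout (1.81, SE 0.44, edgeR adjusted p = 0.00580). It passed the filter on low counts only through the knockout, so only a higher call was open to it.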
